A study of Homo sapiens with 18 samples.

Results

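The genes described here encode 10 receptors that choose cargo for the transport step from the endoplasmic reticulum (ER) to the Golgi, or that bring escaped ER proteins back: LMAN1, MCFD2, LMAN2, SURF4, TMED2, TMED9, TMED10, KDELR1, KDELR2 and KDELR3. They were taken by gene symbol from a table of 57736 Ensembl genes, in which each of the 10 matched 1 row, and all 10 were among the 17317 genes expressed highly enough to be tested. The table covered A1847 cells, an ovarian carcinoma line that expresses CARM1, an arginine methyltransferase that acts on chromatin. Control cells (WT), cells with CARM1 knocked out by a lentiviral CRISPR vector (koCARM1) and cells with XBP1 knocked down by a lentiviral short hairpin RNA (shXBP1) each received vehicle (ctr) or 5 μg/ml tunicamycin (TM) for 8 h, and each of the 6 groups had 3 libraries. Whether the knockout cells came from 1 clone and whether the control cells carried a control vector was not stated in the sources used here. The labels number the replicates only, and the study calls its experiments biologically independent unless it says otherwise, without naming these libraries, so the p-values below measure the spread between libraries, part of which may be technical.

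Soluble and membrane cargo leaves the ER in COPII vesicles, and cargo receptors in the ER membrane raise the efficiency of that step by binding cargo in the lumen and the coat in the cytosol. Resident chaperones that leak out with the cargo carry a KDEL-like tail, are bound by KDEL receptors in the early Golgi and return in COPI vesicles. Tunicamycin blocks the first step of N-glycan assembly, so that glycoproteins fold poorly and the unfolded protein response is switched on. One branch of that response makes the spliced form of XBP1, a transcription factor known for its targets in folding and secretion.

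Promoter sequences are shown for 3 receptor genes, because XBP1 is a DNA-binding factor: KDELR3 and LMAN1, which differed most between shXBP1 and WT cells under tunicamycin, and KDELR1, a paralog of KDELR3 that differed less. KDELR1 was still called lower there, at −0.19 on the log2 scale. Each line gives the 250 bases upstream of the annotated start, 5′ to 3′ on the gene's strand, from RefSeq on GRCh38.p14 (KDELR3 at chr22:38467846-38468095, plus strand; LMAN1 at chr18:59359266-59359515, minus strand; KDELR1 at chr19:48391552-48391801, minus strand), and capitals mark matches to the motifs searched.
KDELR3: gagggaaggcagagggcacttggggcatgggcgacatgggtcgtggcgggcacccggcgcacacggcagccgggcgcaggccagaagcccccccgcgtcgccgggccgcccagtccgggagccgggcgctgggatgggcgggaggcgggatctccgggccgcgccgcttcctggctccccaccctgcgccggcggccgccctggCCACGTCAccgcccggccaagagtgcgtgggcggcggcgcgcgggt
LMAN1: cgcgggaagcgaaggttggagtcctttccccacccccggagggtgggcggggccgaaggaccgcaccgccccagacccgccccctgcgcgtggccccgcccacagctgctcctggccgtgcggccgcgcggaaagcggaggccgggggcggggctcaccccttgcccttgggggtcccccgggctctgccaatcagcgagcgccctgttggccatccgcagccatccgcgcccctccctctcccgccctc
KDELR1: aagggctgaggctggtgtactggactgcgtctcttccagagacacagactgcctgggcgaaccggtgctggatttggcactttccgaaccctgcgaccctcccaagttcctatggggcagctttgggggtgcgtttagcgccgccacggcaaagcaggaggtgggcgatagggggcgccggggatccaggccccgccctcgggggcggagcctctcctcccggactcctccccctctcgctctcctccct
Both strands of the window from 250 bases before to 50 after each start were searched for the ER stress element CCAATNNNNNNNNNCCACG, its second form ATTGGNCCACG, the XBP1 response element core TGACGTGG and the core ACGTCA, which overlaps the reverse complement of TGACGTGG. Of the 10 receptors, 8 had a window in the table (KDELR2 and TMED9 did not). KDELR3 alone among these 8 held TGACGTGG, on the strand opposite the gene. On the gene's strand this reads CCACGTCA, 46 bases before the start, and the ACGTCA within it was the only match to that core. TGACGTGG was in 0.795% and ACGTCA in 8.32% of 27305 promoter windows. None of the 8 held either ER stress element, which were in 0.0806% and 0.0549% of windows. A match describes the letters in this window and says nothing about binding.

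Library totals were 9367462 to 13917212 counts, and all 18 replicate pairs differed by more than counting noise (chi-square per degree of freedom 1.84 to 7.47). CARM1 averaged 162 CPM (counts scaled to library size, the unit of all levels below) ± 2.69 (SD, n = 3) in vehicle-treated WT libraries and 74.2 ± 3.11 in koCARM1 libraries, and XBP1 under tunicamycin averaged 149.8 ± 3.02 in WT and 71.6 ± 2.35 in shXBP1 libraries. The 6 koCARM1 libraries stood apart from the 12 others beyond CARM1: their log2 CPM correlated with those of the others at r = 0.730 to 0.775, whereas WT and shXBP1 libraries correlated at 0.961 to 0.987. PAX8, a defining marker of ovarian serous carcinoma, had 0 to 2 counts in every WT and shXBP1 library and 465 to 840 in every koCARM1 library, and MUC16 was at 0 in all 18. The other serous markers WT1 and SOX17 had at most 2 counts in WT and shXBP1 (WT1 3 to 13 in koCARM1), and the epithelial KRT19 and CDH1 were at 0 to 44 throughout. EPCAM had 22 to 52 counts in WT and shXBP1 and 157 to 266 in koCARM1, COL1A1 54 to 259 and 2205 to 6247, and KRT8 700 to 896 in WT, 251 to 439 in shXBP1 and 6208 to 9436 in koCARM1. KRT18 (1435 counts or more) and VIM (5324 or more) were present in every library, and the blood cell marker PTPRC was at 11 or fewer. The part of these differences in the results below was not tested. Anything that set the koCARM1 libraries apart cannot be told apart from the loss of CARM1 itself, which bears on every koCARM1 against WT value below, whereas the comparisons of WT with shXBP1 and the tunicamycin responses within WT and within shXBP1 were fitted without those libraries.

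In control cells, tunicamycin raised all 10 receptor mRNAs. In edgeR's quasi-likelihood test with Benjamini-Hochberg adjustment over all tested genes, 10 of 10 were higher and 0 lower at an adjusted p under 0.05, against 22% of all tested genes higher and 19.9% lower, and the median log2 fold change over the 10 was 0.88 against 0 over all genes. The receptors were chosen with earlier results of these data known, so such contrasts with all genes, here and below, are description only. With library totals alone all 10 stayed above 0 and 8 were called. That setting put the median over all genes at −0.08, and its share of all genes called was not counted. The tunicamycin libraries lay above the vehicle libraries without overlap for each of the 10. The share of all tested genes whose groups separated in this way was not counted, here or in the comparisons below. The cargo receptor complex LMAN1-MCFD2 and TMED9 rose most, the KDEL receptors KDELR1 and KDELR3 least. CPM values are scaled by TMM factors and are compared only within a gene. In these bulk libraries, less RNA per cell and fewer cells that make it cannot be told apart.

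**Figure D1:**
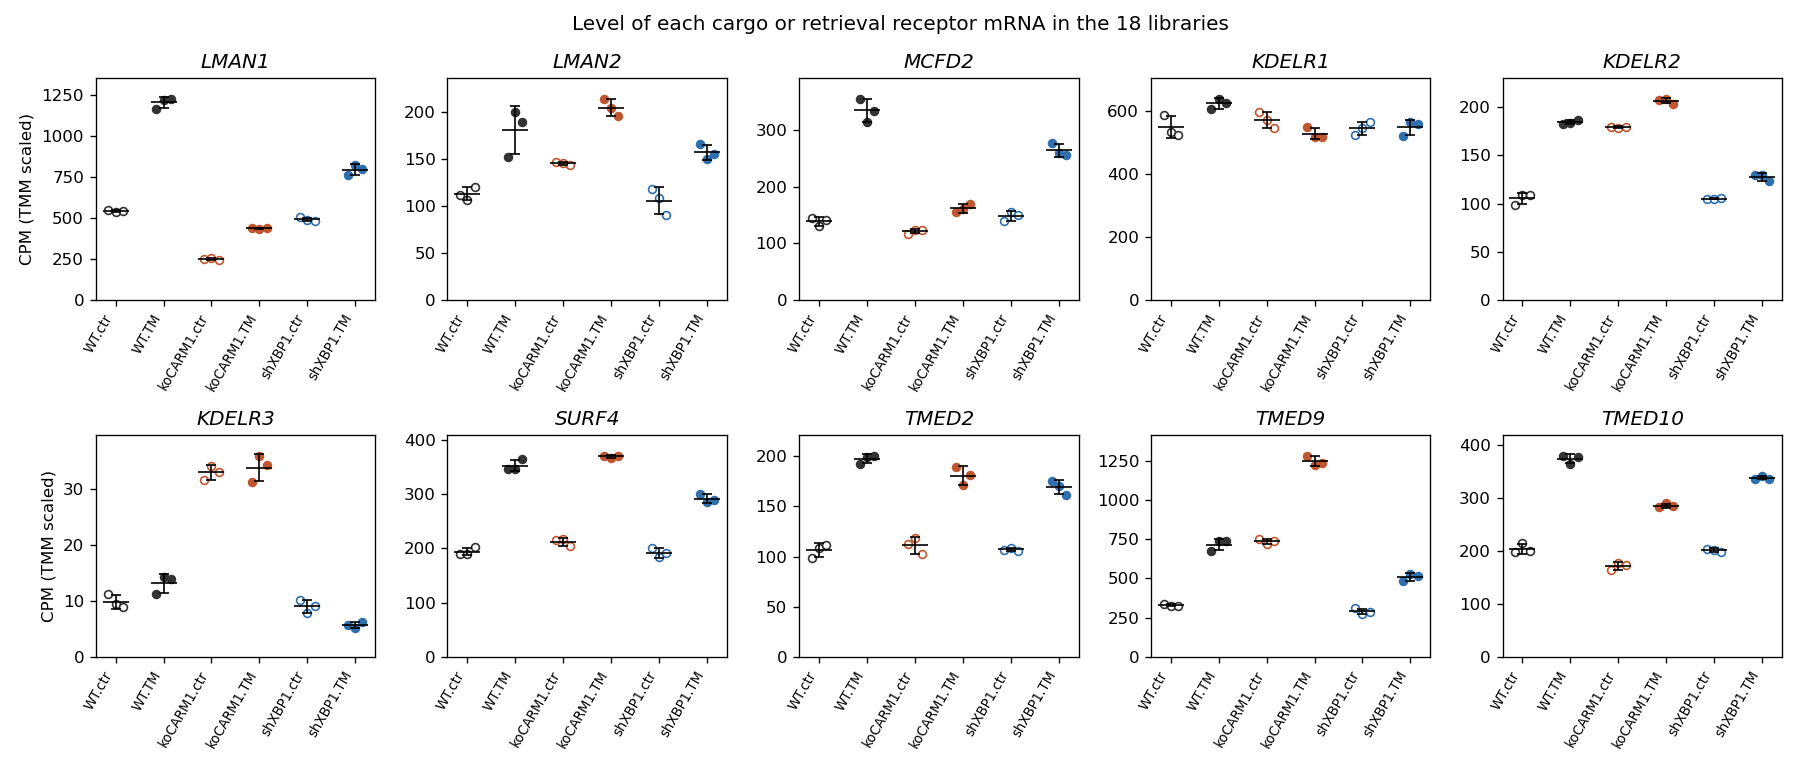
CPM (TMM scaled, axes from 0) of each receptor mRNA in the 18 libraries, 1 panel per gene. Points are libraries, open for vehicle and filled for tunicamycin, and the horizontal line and bar are the mean and SD of 3. In WT all 10 genes sit higher with tunicamycin, KDELR1 moves least, and KDELR3 is highest in koCARM1 and falls with tunicamycin in shXBP1.

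LMAN1, a mannose-binding lectin that carries glycoproteins such as coagulation factors V and VIII out of the ER (chr18:56995055-57026497, minus strand, GRCh37), stood at 549, 535 and 545 CPM in the 3 vehicle-treated WT libraries and at 1167, 1224 and 1230.4 with tunicamycin. Its log2 fold change was 1.16 (SE 0.0479, adjusted p = 1.03e-11 in edgeR's quasi-likelihood test), a 2.24-fold rise. MCFD2, the small calcium-binding partner that LMAN1 needs for those factors (chr2:47129009-47168994, minus strand), stood at 145, 130.0 and 141 CPM with vehicle and at 356, 315 and 334 with tunicamycin. This was the largest change among the 10 receptors, at 1.28 on the log2 scale (SE 0.0623, adjusted p = 7.97e-11 in the same test). The ratio of LMAN1 to MCFD2 counts within a library was 3.79 to 4.12 with vehicle and 3.28 to 3.88 with tunicamycin, ranges that overlap. LMAN2, a related lectin that cycles through the early secretory pathway (chr5:176742806-176778841, minus strand), stood at 112, 106 and 121 CPM with vehicle and at 152, 200.3 and 190.0 with tunicamycin, a log2 fold change of 0.69 (SE 0.0862). Replicate 1 of the tunicamycin libraries lay well below the other two for LMAN2, but still above every vehicle library.

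SURF4, a receptor for many soluble secreted proteins (chr9:136228326-136243037, minus strand), stood at 190.3, 189.6 and 202 CPM with vehicle and at 346, 346 and 364 with tunicamycin, a log2 fold change of 0.87 (SE 0.0536). The TMED proteins span the membrane, work as mixed oligomers and take GPI-anchored proteins among other cargo. TMED9 (chr5:177019204-177024243, plus strand) stood at 338, 326 and 324 CPM with vehicle and at 674, 739 and 735 with tunicamycin, a log2 fold change of 1.13 (SE 0.0536). TMED2 (chr12:124069080-124083129, plus strand) and TMED10 (chr14:75598172-75643315, minus strand), which depend on each other for stability, moved by almost the same amount, at 0.90 (SE 0.0601) and 0.89 (SE 0.0531). Their count ratio, TMED10 to TMED2, was 1.80 to 2.01 with vehicle and 1.83 to 1.98 with tunicamycin. The ratio of TMED9 to TMED2 was 2.90 to 3.43 with vehicle and 3.51 to 3.71 with tunicamycin, so the ranges separated, with TMED9 gaining.

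The 3 KDEL receptors differed in size of response. KDELR2 (chr7:6485584-6523821, minus strand) stood at 98.5, 108 and 109 CPM with vehicle and at 183, 183 and 187 with tunicamycin, a log2 fold change of 0.82 (SE 0.0583). KDELR1 (chr19:48885832-48894808, minus strand) stood at 588, 534 and 523 CPM with vehicle and at 605, 639.6 and 627 with tunicamycin. Its rise was 14.7%, or 0.20 on the log2 scale (SE 0.0552, adjusted p = 0.00801 in edgeR's quasi-likelihood test), and it lost the call when libraries were scaled by their totals alone (0.11, adjusted p = 0.128). The count ratio of KDELR2 to KDELR1 moved from 0.168 to 0.209 with vehicle to 0.287 to 0.302 with tunicamycin. KDELR3 (chr22:38864083-38879452, plus strand) had the fewest counts of the 10 in WT, 129 to 184 a library, and stood at 11.2, 9.50 and 8.84 CPM with vehicle and at 11.2, 14.4 and 14.0 with tunicamycin. Its groups nearly touched, and its log2 fold change of 0.44 (SE 0.140, adjusted p = 0.0188 in the same test) lost the call with library totals alone and without vehicle replicate 2 (0.41) or 3 (0.36) or tunicamycin replicate 2 (0.37) or 3 (0.38).

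The genes next to the receptors went both ways. The median log2 fold change with tunicamycin in WT of well-expressed genes within 2 Mb lay between −0.28 (LMAN2) and 0.48 (LMAN1, 7 genes), below the receptor's own value in each case. SURF2, which ends 292 bases from SURF4, fell by 0.55, and DDX55, 3495 bases from TMED2, fell by 0.41, whereas B4GALT7, 2890 bases from TMED9, rose by 0.62 and SEC11C, a signal peptidase subunit and the nearest tested gene on one side of LMAN1, 168991 bases away, rose by 1.97. MXD3 (0.62), TMEM143 (0.42) and NEK9 (0.32), next to LMAN2, KDELR1 and TMED10, were also higher. Some receptor genes overlap others in the annotation, and because the counting is not stated to use strand, reads in the shared stretch cannot be told apart. KDELR3 overlaps DDX17 by 10 bases on the opposite strand. DDX17 had 2304 to 6916 counts a library against 58 to 454 for KDELR3, and it fell with tunicamycin by 0.37 in WT, where KDELR3 rose. TTC7A (81 to 184 counts, opposite strand, overlapping MCFD2 by 25987 bases) fell by 0.62 in WT. DAGLB (63 to 266 counts, same strand, overlapping KDELR2 by 38238 bases, its whole span) did not pass the test there (−0.04). Processed copies of MCFD2, TMED2 and TMED10 had at most 3 counts in any library.

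Tunicamycin acted on the receptors in the other genotypes as well, with smaller changes and with KDELR1 and KDELR3 set apart. In koCARM1 cells 8 of 10 were higher and 0 lower (all tested genes, 20.6% higher and 18.8% lower), with a median of 0.63. In shXBP1 cells 8 of 10 were higher and 1 lower (all tested genes, 19.2% higher and 19% lower), with a median of 0.62, and the median over all genes was 0 in both genotypes. LMAN1, MCFD2, LMAN2, SURF4, TMED2, TMED9, TMED10 and KDELR2 were higher in all 3 genotypes. KDELR1 did not pass the test in koCARM1 (−0.08, SE 0.0357, adjusted p = 0.0826) or in shXBP1 (−0.0007, SE 0.0439) in edgeR's quasi-likelihood test. KDELR3 was at 0.07 (SE 0.0766) in koCARM1, also short of the test.

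**Figure D2:**
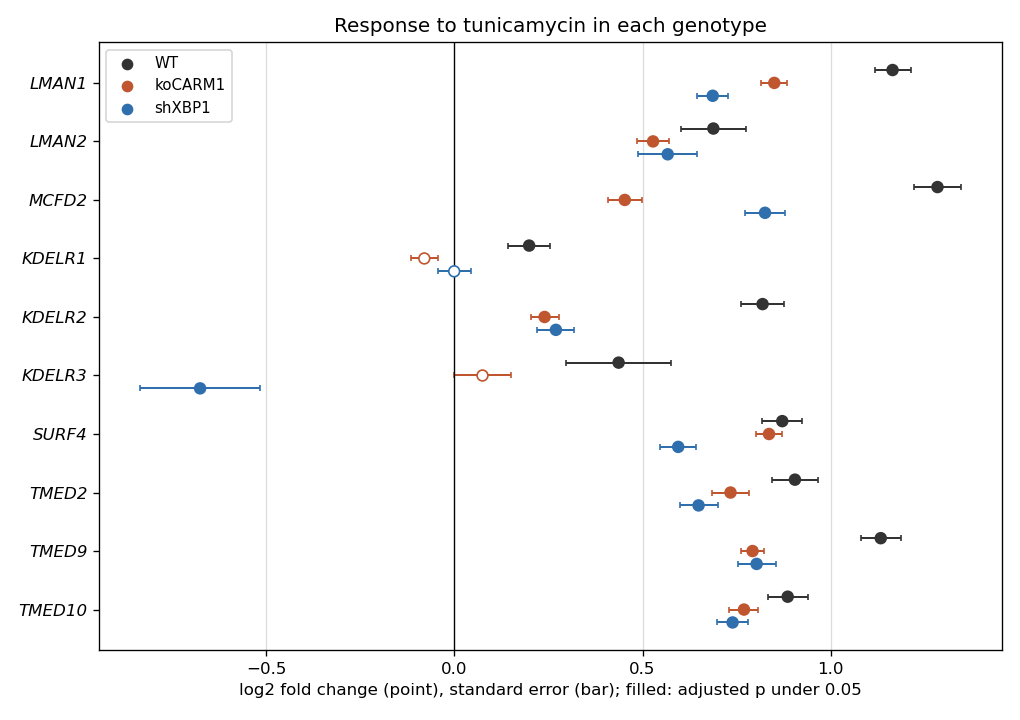
Log2 fold change of tunicamycin against vehicle for each receptor in WT, koCARM1 and shXBP1 cells, with bars of 1 standard error and filled points where the adjusted p was under 0.05. The WT point is the rightmost for each of the 10 genes, and KDELR3 in shXBP1, at −0.68, is the only filled point left of 0.

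KDELR3 was the exception that fell. In shXBP1 cells it stood at 10.2, 7.80 and 9.06 CPM with vehicle (110 to 136 counts) and at 5.71, 5.09 and 6.21 with tunicamycin (58 to 81 counts), with no overlap. Its log2 fold change was −0.68 (SE 0.160, adjusted p = 0.00314 in edgeR's quasi-likelihood test), and it kept the call under all 13 alternatives, at −0.77 to −0.58. DDX17, on the other strand, also fell in these cells, by 0.63. The part of the shared stretch in this result was not tested.

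The XBP1 knockdown made little difference to the receptors without stress. Under vehicle, 0 of 10 were higher and 0 lower in shXBP1 than in WT (all tested genes, 2.07% higher and 3.03% lower) in edgeR's quasi-likelihood test, with a median of −0.03, and 2 had an unadjusted p under 0.05. Those 2 were TMED9 (−0.19, SE 0.0525, adjusted p = 0.0511 in that test) and LMAN1 (−0.15, SE 0.0444, adjusted p = 0.0667). TMED9 was called lower in 8 of 13 alternatives and LMAN1 in 3 of 13, DESeq2 among them for both. TMED9 stood at 308, 275 and 286 CPM in shXBP1 and LMAN1 at 504, 489 and 482, each library below every WT library. The other 8 overlapped between genotypes.

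Under tunicamycin the receptors were lower in shXBP1 than in WT. Of the 10, 9 were lower and 0 higher in edgeR's quasi-likelihood test (all tested genes, 8.55% lower and 6.99% higher), the 10 values were all below 0, and the median was −0.30 against 0.0008 over all genes. For the 9 called, no library of one genotype overlapped the other, a separation that was not counted over all genes. KDELR3 differed most, at −1.21 (SE 0.153, adjusted p = 5.39e-05), a 2.32-fold lower level. LMAN1 stood at 761, 827 and 799 CPM in shXBP1, all under the lowest WT value of 1167, a difference of −0.60 (SE 0.0417, adjusted p = 9.34e-08). KDELR2 stood at 129.6, 129.8 and 123 CPM, all under the lowest WT value of 183, a difference of −0.53 (SE 0.0496). TMED9 stood at 481, 528 and 518 CPM against 674 or more in WT, a difference of −0.49 (SE 0.0487).

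The other differences were smaller. MCFD2 stood at 278, 260.5 and 256 CPM in tunicamycin-treated shXBP1 cells, a difference of −0.34 (SE 0.0535) from WT, and SURF4 at 301, 285 and 288, a difference of −0.27 (SE 0.0460). TMED2 was at −0.22 (SE 0.0506), KDELR1 at −0.19 (SE 0.0443) and TMED10 at −0.15 (SE 0.0427). These last 3 rested on single libraries: without WT tunicamycin replicate 3, KDELR1 (−0.18) and TMED10 (−0.14) did not pass, without shXBP1 tunicamycin replicate 3, TMED2 (−0.19) did not, and TMED10 was also lost without any 1 shXBP1 tunicamycin replicate. LMAN2, at −0.20 (SE 0.0810, adjusted p = 0.117 in edgeR's quasi-likelihood test), did not pass, with overlapping groups. Without WT tunicamycin replicate 1, the low library noted above, LMAN2 was called lower (−0.31, adjusted p = 0.00147 in that test). DDX17 was lower too under tunicamycin, by 0.34.

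**Figure D3:**
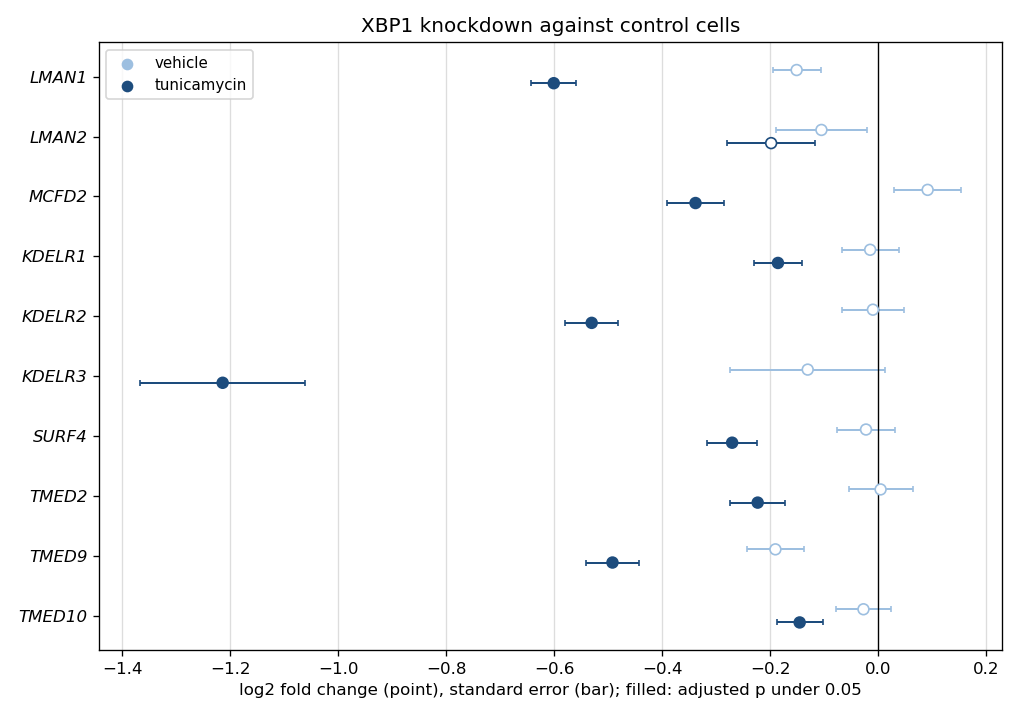
Log2 fold change of shXBP1 against WT for each receptor, under vehicle (pale) and tunicamycin (dark), with bars of 1 standard error and filled points where the adjusted p was under 0.05. The vehicle points lie between −0.19 and 0.09 and none is filled, and the tunicamycin points lie between −1.21 and −0.15 with LMAN2 alone unfilled.

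Whether the response to tunicamycin itself differed from WT was tested as an interaction term, the response in shXBP1 or koCARM1 minus the response in WT. The 2 terms share the WT libraries, so they are set side by side and not counted together. In shXBP1 the term was below 0 for all 10 receptors, with a median of −0.30, and passed the test for 6 lower and 0 higher (all tested genes, 1.67% lower and 0.364% higher). In koCARM1 it was also below 0 for all 10, with a median of −0.32, and passed for 5 lower and 0 higher (all tested genes, 12.4% lower and 10.5% higher). The median over all genes was 0 for shXBP1 and −0.01 for koCARM1.

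In shXBP1 the largest term was that of KDELR3, −1.10 (SE 0.212, adjusted p = 0.00580 in edgeR's quasi-likelihood test), against −0.38 (SE 0.152, adjusted p = 0.0775) in koCARM1. KDELR2 was at −0.54 (SE 0.0718, adjusted p = 0.000202) in shXBP1 and −0.60 (SE 0.0651, adjusted p = 1.01e-06) in koCARM1, in the same test. The KDELR2 to KDELR1 count ratio shows this within libraries: with tunicamycin it was 0.287 to 0.302 in WT and 0.220 to 0.249 in shXBP1, whereas with vehicle both genotypes averaged 0.193. LMAN1 was at −0.47 (SE 0.0602) in shXBP1 and −0.33 (SE 0.0553) in koCARM1. MCFD2, its partner, was at −0.45 (SE 0.0839) in shXBP1 and −0.85 (SE 0.0796) in koCARM1. TMED9 was at −0.32 (SE 0.0750) and −0.36 (SE 0.0605).

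SURF4 passed in shXBP1 (−0.27, SE 0.0692, adjusted p = 0.0482 in edgeR's quasi-likelihood test) and not in koCARM1 (−0.05, SE 0.0612), and its call in shXBP1 was lost in 9 of the 12 fits that left out 1 library. KDELR1 passed in koCARM1 (−0.30, SE 0.0686, adjusted p = 0.00312) and not in shXBP1 (−0.19, SE 0.0720, adjusted p = 0.214). TMED9 in shXBP1 lost its call (adjusted p = 0.0255) without any of WT vehicle replicate 2, WT tunicamycin replicates 2 and 3, shXBP1 vehicle replicate 1, and shXBP1 tunicamycin replicates 1 and 3. LMAN2, TMED2 and TMED10 passed in neither, at −0.25 to −0.11 in shXBP1 and −0.19 to −0.14 in koCARM1.

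**Figure D4:**
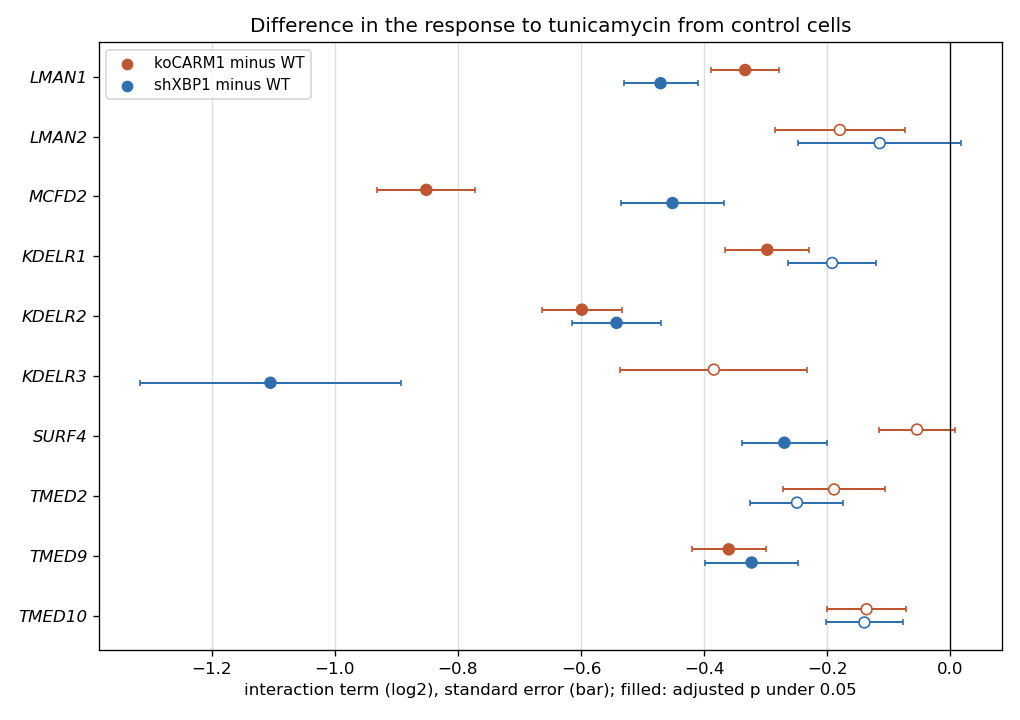
Interaction term of each receptor, the log2 response to tunicamycin in koCARM1 or shXBP1 minus that in WT, with bars of 1 standard error and filled points where the adjusted p was under 0.05. Every point lies left of 0, KDELR3 in shXBP1 (−1.10) and MCFD2 in koCARM1 (−0.85) farthest.

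The responses of shXBP1 and koCARM1 cells were also compared directly, a test added after the values above had been seen. The response of KDELR3 was lower in shXBP1, where it fell (−0.68), than in koCARM1 (0.07, not called). The term was −0.70 (SE 0.157, adjusted p = 0.00285 in edgeR's quasi-likelihood test). SURF4 responded less in shXBP1, at −0.20 (SE 0.0590, adjusted p = 0.0212), and MCFD2 responded more, by 0.42 (SE 0.0732, adjusted p = 0.000346), in the same test. These were 2 lower and 1 higher of 10, against 9.63% lower and 11.4% higher of all tested genes. The other 7 receptors, KDELR2 and TMED9 among them, did not pass. The call of SURF4 was lost without koCARM1 vehicle replicate 3 (−0.17) or shXBP1 tunicamycin replicate 2 (−0.18).

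Between koCARM1 and WT cells the receptors moved both ways. Under vehicle 4 were higher and 3 lower (all tested genes, 37.5% higher and 36.9% lower), and under tunicamycin 4 were higher and 5 lower (38.4% higher and 36.8% lower), shares near the background, with medians of 0.05 and −0.02. With libraries scaled by their totals alone the counts were 4 higher and 5 lower under vehicle and 2 higher and 5 lower under tunicamycin. That scaling moved the median over all genes to −0.20 and −0.18, and its shares of all genes called were not counted. KDELR3 was the most raised, at 31.7, 34.2 and 33.1 CPM in vehicle-treated koCARM1 cells, above every WT library, a log2 difference of 1.70 (SE 0.105, adjusted p = 6.33e-10 in edgeR's quasi-likelihood test). It stayed at 31.2, 36.0 and 34.3 CPM with tunicamycin. DDX17 was lower there by 0.89 under vehicle. TMED9 stood at 752, 721 and 741 CPM, a difference of 1.12 (SE 0.0413), and reached 1283, 1222 and 1237 with tunicamycin. Its count ratio to TMED2 was 6.07 to 7.26 in the 6 koCARM1 libraries and 2.53 to 3.71 in the 12 others.

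LMAN1 was lowered most. It stood at 248, 256 and 241 CPM in vehicle-treated koCARM1 cells, a difference of −1.17 (SE 0.0427, adjusted p = 9.40e-13 in edgeR's quasi-likelihood test), and at 440.3, 433 and 437 with tunicamycin, below every WT library of either treatment. MCFD2 was at −0.24 (SE 0.0553) under vehicle and −1.04 (SE 0.0531) under tunicamycin, where it stood at 155, 159.9 and 170.4 CPM. The LMAN1 to MCFD2 count ratio was 1.94 to 2.13 in koCARM1 with vehicle and 2.56 to 2.83 with tunicamycin, below the WT libraries in both. KDELR2 was higher under vehicle (0.72, SE 0.0520) and by less under tunicamycin (0.17, SE 0.0424, with library totals alone 0.01 and not called). DAGLB, which overlaps KDELR2 on the same strand and had 63 to 266 counts a library, was higher by 1.48 and 1.71. The part of DAGLB reads in the KDELR2 values was not tested. TMED10 was lower under both, at −0.29 (SE 0.0505) and −0.38 (SE 0.0403). LMAN2 was higher under both, at 0.32 (SE 0.0545) and 0.19 (SE 0.0792), the second lost in 6 of 13 alternatives, among them library totals alone (0.02), all 18 libraries in one fit (0.18), and the fits without WT tunicamycin replicate 1 (0.09) or koCARM1 tunicamycin replicate 1 (0.15) or 2 (0.19). KDELR1 passed under tunicamycin only, at −0.24 (SE 0.0410), as did TMED2 at −0.12 (SE 0.0484). The call of TMED2 was lost in 8 of 13 alternatives, at −0.12 to −0.07: with DESeq2 size factors, DESeq2, no filter on low counts, at least 10 counts in every library, the replicate block, and without WT tunicamycin replicate 3 or koCARM1 tunicamycin replicate 2 or 3. SURF4 passed under neither (0.08, SE 0.0480, and 0.08, SE 0.0403), but 5 of 13 alternatives called it higher under vehicle (one of them the fit without WT vehicle replicate 3, 0.14) and 3 of 13 under tunicamycin.

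Some receptors differed between koCARM1 and WT by about as much as the median of the genes around them, and others did not. The 7 well-expressed genes within 2 Mb of LMAN1 had a median difference of −1.25 under vehicle and −1.43 under tunicamycin, beside −1.17 and −1.46 for LMAN1. These 7 were spread widely, with quartiles of −1.46 and 0.44 under vehicle and −1.76 and 0.50 under tunicamycin. Of the nearest tested genes, SEC11C on one side was at −1.25 and −1.91, and CCBE1 on the other at 2.32 and 1.62. The 29 near TMED10 had −0.40 and −0.35, beside −0.29 and −0.38. The 15 near MCFD2 had medians of −1.02 and −1.06, and MCFD2 lay above this under vehicle (−0.24, with 12 of the 15 below it) and near it under tunicamycin (−1.04). Under vehicle KDELR3 (46 nearby genes, median −0.25), TMED9 (31 genes, 0.09) and KDELR2 (29 genes, 0.10) lay above their regions, with 6, 5 and 4 nearby genes higher than the receptor. SURF4 lay under its region, whose 23 genes had a median of 0.48. The part of the region in the receptors' differences was not tested.

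**Figure D5:**
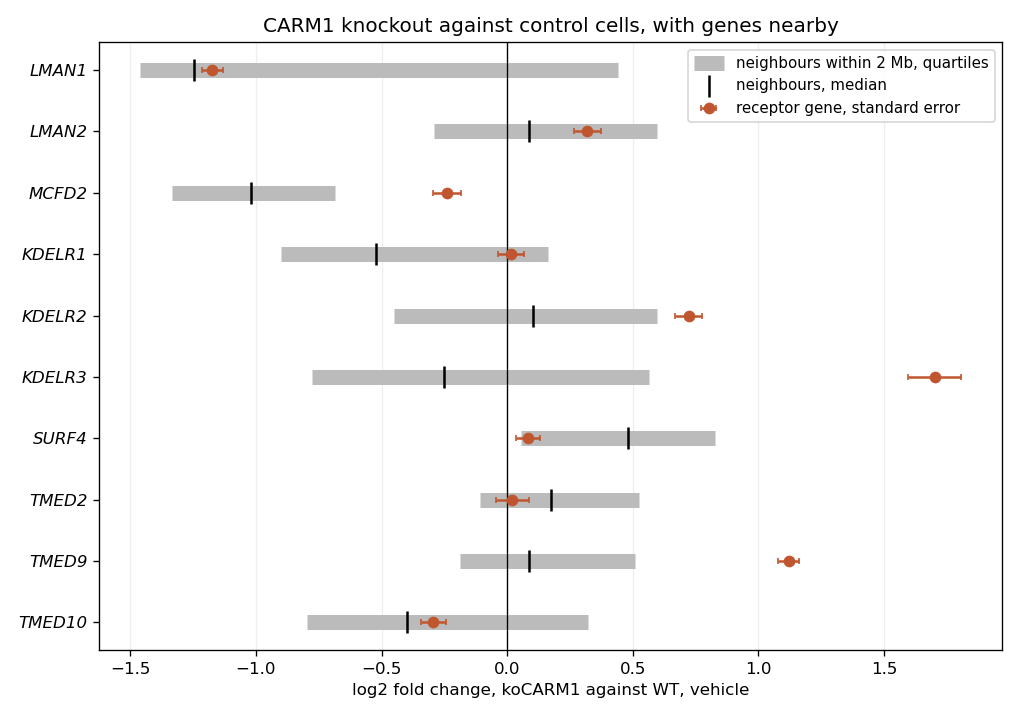
Log2 fold change of koCARM1 against WT under vehicle for each receptor (orange, with 1 standard error), beside the median (black tick) and quartiles (grey) of well-expressed genes within 2 Mb. LMAN1 (−1.17) lies near its region's median (−1.25), and KDELR3 (1.70), TMED9 (1.12), KDELR2 (0.72) and MCFD2 (−0.24) lie right of the quartiles.

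The genes that work with these receptors were described with the same test in 5 lists. The genes listed as ligands of the KDEL receptors, soluble ER proteins most of which have a KDEL-like tail, were mostly higher. With tunicamycin in WT, 22% of all tested genes were higher and 19.9% lower. Of the ligands 20 of 22 were higher and 1 lower, with a median of 1.27, led by HSPA5, the chaperone BiP (3.08), and with SDF2 lowest (−0.38). In the COPI coat and its ARF cycle 12 of 15 were higher and 0 lower, led by the coat subunit COPA (1.70), with a median of 1.00 without COPZ2, which had 0 to 3 counts in WT. Among the tethers and SNAREs of traffic between the ER and the Golgi 14 of 16 were higher, led by the SNARE BET1 (2.19), and 2 lower, of which GORASP1 was lowest (−0.54). Of the other cargo and retrieval receptors 9 of 21 were higher and 5 lower, the lower share near that of all genes, a median of 0.15, TMED7 at 1.64 and CNIH2 at −2.00. Of the secretory cargo of LMAN1 with MCFD2, 3 of 5 genes were tested, 0 were higher and 2 lower, with a median of −0.26 and CTSZ lowest (−0.38).

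In koCARM1 cells (all tested genes, 20.6% higher and 18.8% lower) the tunicamycin counts were 19 higher and 2 lower for the ligands, 13 and 0 for COPI, 12 and 2 for the tethers, 6 and 6 for the other receptors and 0 and 2 for the cargo. In shXBP1 cells (19.2% higher and 19% lower of all genes) they were 19 and 1, 12 and 0, 11 and 2, 6 and 5, and 0 and 1, in the same order. For shXBP1 against WT under tunicamycin the background was 8.55% lower and 6.99% higher. Of the ligands 12 were lower and 0 higher, with FKBP14 lowest (−0.93) and HSPA5 at −0.39. Of COPI 10 were lower and 1, COPZ1, higher, and of the tethers 11 were lower and 0 higher. Of the other receptors 4 were lower, YIPF5 most (−0.88), and 1, RER1, was higher (0.31), and of the cargo 1, CTSZ, was higher (0.42). Under vehicle, where 3.03% of all genes were lower and 2.07% higher, the same difference gave 2 ligands higher and 2 lower, 1 COPI gene and 1 tether lower, 1 cargo gene higher and 0 of the other receptors in either direction.

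As interaction terms in shXBP1 (all tested genes, 1.67% lower and 0.364% higher), 4 ligands, 6 COPI genes, 8 tethers and SNAREs, 3 other receptors and 0 cargo genes were lower and 0 of any list were higher. FKBP14 was at −0.87, ARFGAP3 at −0.70, BET1 at −0.69 and YIPF5 at −0.75. In koCARM1 (12.4% lower and 10.5% higher of all genes) the ligands went both ways, with 8 higher (PDIA4 at 1.05, HSPA5 at 0.67) and 9 lower (ERP44 at −1.13), whereas 9 COPI genes and 10 tethers and SNAREs were lower and 0 higher. Of the other receptors 3 were higher and 4 lower there, and of the cargo 1 was lower. Between koCARM1 and WT, where 37.5% of all genes were higher and 36.9% lower under vehicle (38.4% and 36.8% under tunicamycin), 1 ligand was higher and 17 lower under vehicle (5 and 15 under tunicamycin), 9 COPI genes were higher and 3 lower (5 and 7), 9 tethers were higher and 0 lower (7 and 7), 10 other receptors were higher and 5 lower (9 and 8), and 2 cargo genes were higher and 0 lower under both. COPZ2 is among the COPI genes counted as higher under both treatments (7.06 and 5.75). It was almost absent from WT and passed the count filter through the koCARM1 libraries, so the filter set that call. In the direct comparison of the responses of shXBP1 and koCARM1 (all tested genes, 11.4% higher and 9.63% lower), 3 ligands were higher and 9 lower, 2 COPI genes higher and 1 lower, 5 tethers higher and 0 lower, 5 other receptors higher and 2 lower, and 1 cargo gene higher.

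Over the 18 libraries, the gene nearest in pattern to a receptor was sought as the smallest root mean square difference of log2 CPM centred on each gene's mean, a description with no test. SURF4 and TMED2 were each other's nearest receptor (0.10). Outside the 10, TMED10 lay nearest to MED10 (0.07) and RCN1, a KDEL receptor ligand (0.08), TMED9 to SSR1, a translocon-associated protein (0.10), SURF4 to the ER calcium pump ATP2A2 (0.10) and the ER exit site scaffold SEC16A (0.11), LMAN2 to USP11 (0.10), LMAN1 to TXNDC15 (0.14), MCFD2 to EXOSC1 (0.11) and KDELR2 to UBXN1 (0.12). KDELR3 had no close neighbour, the nearest being BTG3 (0.24) against its own spread of 0.96. For KDELR1 the nearest, PSMC5 (0.08), lay almost as far as its own spread (0.09), since KDELR1 hardly moved. The points share 6 groups and the gap between koCARM1 and the other libraries, which sets much of each distance.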

How the data were processed

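RNA of 18 A1847 samples was made into 3′ mRNA-seq libraries (Lexogen) and read as 75 nt single reads. The authors used bowtie2 on hg19 and RSEM (version 1.2.3 in the submitters' processing notes) for the expected count of each Ensembl gene, and deposited these estimated counts rounded to whole numbers, with no normalization. The Ensembl release and the strand setting are not given in the sources used here. RSEM shares reads between similar transcripts, so near-identical copies and overlapping genes are uncertain. RPKM values and the authors' own comparisons were not used.

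Groups came from the labels. Genes passing filterByExpr (minimum count 10) over all libraries were tested with edgeR 4.0.16 (R 4.3.3) by quasi-likelihood F test, TMM scaling and one fit per comparison of its groups alone, 12 libraries for an interaction term. P-values were adjusted over all 17317 genes by the Benjamini-Hochberg method, with 0.05 as the threshold, and SE is the log2 fold change over the root of F. With 3 against 3 libraries an exact permutation test cannot go below p = 0.1, so none is given. Alternatives were DESeq2 size factors, library totals alone, DESeq2 1.42.0, other count filters, a single fit of the 18 libraries, a replicate block, and fits without each library in turn. The fits were also run on simulated counts in which few genes changed, evenly up and down, with a fixed dispersion. That setting is simpler than these libraries, so it cannot vouch for the calls above.

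All 10 receptors are counted in every comparison. Beside them the text names the highest and lowest gene of each list (others were chosen after their values were seen), the nearest genes in pattern and position, and CARM1 and XBP1. Not every gene near in pattern is reported here. The receptors and lists were chosen with earlier results of these data known. SEC22B and PECAM1 had no row by symbol. Genes nearby were well expressed if their mean log2 CPM (prior count 2) was 3 or more, and gene positions are on GRCh37. Library totals give the precision: KDELR3 at 58 counts carries more counting error than the other receptors.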

Additional observations from a re-analysis of the deposited data

Results flagged for a closer look

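The terms below are differences between the responses of 2 genotypes to tunicamycin, on the log2 scale, that passed edgeR's quasi-likelihood test of the difference itself. koCARM1 responded less than WT for LMAN1 (−0.33), MCFD2 (−0.85), KDELR1 (−0.30), KDELR2 (−0.60) and TMED9 (−0.36). shXBP1 responded less than WT for LMAN1 (−0.47), MCFD2 (−0.45), KDELR2 (−0.54), SURF4 (−0.27) and TMED9 (−0.32), and KDELR3 (−1.10) rose in WT but fell in shXBP1. Against koCARM1, shXBP1 responded more for MCFD2 (0.42) and less for SURF4 (−0.20). For KDELR3, called lower with tunicamycin in shXBP1 alone, the term was −0.70. For MCFD2 the koCARM1 libraries reached 155 to 170.4 CPM with tunicamycin, against 315 to 356 in WT and 256 to 278 in shXBP1. For KDELR3 the shXBP1 libraries with tunicamycin held 58 to 81 counts, the fewest of any receptor in any group.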

How the results depend on the processing

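Of the receptor values recomputed under every alternative, 1362 kept their direction and their side of the threshold, 49 no longer passed it, 31 passed it newly and 37 turned direction. Of those 37, 35 were called neither way, and 2 were called after turning, KDELR1 (−0.15) and TMED2 (−0.15) in koCARM1 against WT under vehicle with library totals alone. That setting also turned SURF4 in koCARM1 against WT (−0.0872 under vehicle and −0.0890 under tunicamycin), TMED2 in shXBP1 against WT under vehicle (−0.0079) and TMED10 in the response of shXBP1 against koCARM1 (−0.0215). In that last comparison TMED10 also turned with no filter (−0.0408) and with at least 10 counts (−0.0297), and TMED9 with no filter (−0.0005). The same filters turned SURF4 in the koCARM1 interaction (0.0164 and 0.0076), and KDELR1 with tunicamycin in shXBP1 turned with DESeq2 size factors (0.0044), DESeq2 (0.0042) and one fit (0.0076). Leaving out 1 library gave values on both sides of 0 for KDELR1 with tunicamycin in shXBP1 (−0.0271 to 0.0415), for KDELR1 (−0.0161 to 0.0839) and TMED2 (−0.0302 to 0.0799) in koCARM1 against WT under vehicle, for KDELR1 (−0.0468 to 0.0381), KDELR2 (−0.0558 to 0.0181), SURF4 (−0.0554 to 0.0101), TMED2 (−0.0465 to 0.0433) and TMED10 (−0.0489 to 0.0094) in shXBP1 against WT under vehicle, for SURF4 in the koCARM1 interaction (−0.0780 to 0.0425), and for LMAN2 (−0.0650 to 0.17), TMED2 (−0.0982 to 0.0102), TMED9 (−0.0017 to 0.10) and TMED10 (−0.0466 to 0.0458) in the response of shXBP1 against koCARM1. Library totals alone shifted the median of all genes to −0.20 in koCARM1 against WT under vehicle and to −0.18 under tunicamycin. The shares of all genes called were not counted with that setting or with any other alternative, so the counts of receptors below stand without a background. With library totals alone the receptors lower numbered 1 for tunicamycin in koCARM1, 5 for koCARM1 against WT under vehicle and 2 for shXBP1 against WT under vehicle, and those higher numbered 2 for koCARM1 against WT under tunicamycin. For shXBP1 against WT under vehicle, reported as 0 lower, the count was 2 with DESeq2 and with all 18 libraries in one fit, and 1 with no filter on low counts, with at least 10 counts in every library and with the replicate block. Leaving out 1 library gave 0 to 1 there (1 without WT vehicle replicate 3 or shXBP1 vehicle replicate 1), 0 to 1 lower for tunicamycin in koCARM1 (1, KDELR1, without vehicle replicate 3 or tunicamycin replicate 1) and 1 to 3 lower for the response of shXBP1 against koCARM1 (1 without koCARM1 vehicle replicate 3 or shXBP1 tunicamycin replicate 2, 3 without shXBP1 vehicle replicate 3, LMAN1 at −0.18 being called newly). LMAN1 made 3 there also with library totals alone (−0.16), no filter (−0.18) and at least 10 counts (−0.16). The interaction of SURF4 in shXBP1 was also lost with DESeq2 size factors (−0.26), library totals alone (−0.24), no filter (−0.24) and the replicate block (−0.27). DESeq2 gave no adjusted p for the interaction of KDELR3 in shXBP1 (−1.10, unadjusted p = 1.4e-05). The cause of these changes was not tested.

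Same-numbered replicates did not deviate together (correlations of −0.37 to 0.25 over the 7 pairwise comparisons), so the numbers were not taken as pairs. With the replicate block 4 receptors, not 6, were lower as the shXBP1 interaction, TMED9 (−0.32, adjusted p = 0.0565 in edgeR's quasi-likelihood test) and SURF4 dropping out. The share of all genes called with the block was not counted. KDELR3 at 5.09 to 14.4 CPM in WT and shXBP1 limits what can be said of changes in that gene.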
